A study of Mus musculus with 16 samples.

Results

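Toll-like receptors are membrane proteins with which macrophages sense microbial products and the debris of damaged cells. Tlr2, which pairs with Tlr1 or Tlr6, and Tlr4, which works with Ly96 and Cd14, act mainly at the cell surface, while Tlr3 and Tlr7 read RNA inside endosomes. Except for Tlr3, these receptors signal through the adaptor Myd88 to kinases that free the transcription factors of the NF-kappa-B family, and microglia, the resident macrophages of the brain, carry most of them. The genes described here are Tlr1, Tlr2, Tlr3, Tlr4, Tlr6, Tlr7, Cd14, Ly96 and Myd88, 9 of 12394 genes measured on the arrays. They were chosen by name, and each was read from its brightest probe set over the 16 arrays among those annotated to its symbol alone.

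The cells were tumour macrophages, sorted as positive for CD11b and negative for Gr1, from 16 mice with gliomas. All mice, treated or not, were Nestin-Tv-a;Ink4a/Arf-/- on a mixed background. They lacked the tumour suppressors of the Ink4a/Arf locus in every cell, and their tumours were started by injecting DF-1 cells that release the RCAS-PDGF-B-HA virus, which infects only cells with the Tv-a receptor. For 7 days 8 mice received BLZ945, which blocks the kinase of the CSF-1 receptor, by daily gavage at a labelled 200 mg without a body weight, and 8 received the vehicle, 20% captisol. Each array holds the bulk RNA of 1 mouse, so fewer cells of a type and less RNA per cell cannot be told apart. The Vehicle group held 4 female and 4 male mice aged 11.29, 11.43 or 12.29 weeks, and the BLZ945 group 5 female and 3 male mice aged 11.29 or 13.14 weeks. Only the age of 11.29 weeks was shared, with 4 mice in each group. The tumour volume at the start, labelled without a unit, ran from 11.9 to 27.3 in the 6 Vehicle mice that have one and from 41.3 to 132.3 in BLZ945. Mice are said to have been enrolled at 4.5 to 40 mm3, a range that all 8 BLZ945 values exceed if they are in that unit, so what the label measures is not settled. With no overlap, volume and agent cannot be told apart.

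Markers of macrophages and of leukocytes in general were high in every mouse. The mean log2 level of 10 such genes lay between 11.83 and 12.31 in Vehicle and between 11.68 and 12.18 in BLZ945, and 1 of the 10, Itgam, the gene of the sorting marker CD11b, fell (-1.17, adjusted p = 0.00807). Lists of other cells were lower on average, and some moved with the agent. Of 10 glioma and oligodendrocyte precursor markers 5 fell, the list mean running from 6.07 to 7.75 in Vehicle and from 4.84 to 6.52 in BLZ945. Of 6 monocyte markers 2 fell, F13a1 (-3.41) and Ccr2 (-1.65), with list means of 8.07 to 9.90 and 6.06 to 7.99. Of 8 T and NK cell markers 0 passed in limma and 6 had an unadjusted p under 0.05, beside 22.6% of all genes. Their list mean ran from 3.88 to 4.89 in Vehicle and from 4.37 to 5.91 in BLZ945. Of 11 neutrophil markers 1, the cytokine receptor gene Csf3r, rose (0.80, adjusted p = 0.0346), and the list means were 4.74 to 6.01 and 5.02 to 5.76. Of 8 astrocyte markers 2 fell and of 6 plasmacytoid dendritic cell markers 1 rose, while 0 passed among the B cell, conventional dendritic cell, endothelial, neuron and oligodendrocyte lists. The part of these other cells in the results below was not tested.

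Promoter stretches of 4 of the genes are shown because they hold the letters that factors acting downstream of the receptors are known to bind. Cd14 was not searched. RefSeq windows of 300 bases, from 250 before to 50 after a start site on GRCm38.p6, were at hand for 5 of the other genes, in 7 windows. Each stretch is given 5′ to 3′ on the gene's own strand. In Tlr2 and Tlr3 the capitals mark matches to the NF-kappa-B consensus pattern, found on either strand, which 8.46% of all 32851 windows hold. In Myd88 and Tlr6 they mark GAAA, any 2 bases and GAAA again, on either strand, the core of the response element for interferon, which 3.44% of all windows hold.
Tlr2, chr3:83841599-83841801, minus strand: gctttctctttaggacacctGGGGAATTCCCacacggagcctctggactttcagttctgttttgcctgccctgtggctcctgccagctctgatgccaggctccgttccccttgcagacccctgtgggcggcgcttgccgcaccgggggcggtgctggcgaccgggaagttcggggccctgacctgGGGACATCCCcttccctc
Tlr3, chr8:45410562-45410611, minus strand: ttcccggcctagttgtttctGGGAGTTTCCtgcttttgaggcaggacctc
Myd88, chr9:119340029-119340078, minus strand: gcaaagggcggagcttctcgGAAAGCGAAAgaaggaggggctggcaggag
Tlr6, chr5:64959247-64959302, minus strand: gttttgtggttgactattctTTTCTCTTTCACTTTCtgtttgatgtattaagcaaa
Tlr2 held 2 separate stretches of matches, beginning at positions -173 and -8 from the start site, the first of which joins overlapping matches, and Tlr3 held 1, beginning at -211. In Tlr6 the capitals join overlapping matches on the opposite strand. Neither window of Tlr1, the neighbour of Tlr6 on chromosome 5, held either pattern. The other motifs searched on both strands were GGG and CC parted by any 5 bases (50.8% of all windows), which includes every match of the NF-kappa-B pattern, AGGAAG (35.4%) and GGAAGT (23.8%), 2 overlapping forms of the core bound by the macrophage factor PU.1, TGACTCA of AP-1 (5.2%) and TATAAA (13.6%). AGGAAG was found in a window of Tlr1, in that of Tlr2 and in both of Tlr6, and TGACTCA in none of the 7. A match describes letters only, and none of these windows was measured for binding.

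The comparison of BLZ945 with Vehicle asks how the sorted macrophages of treated mice differ from those of vehicle mice. Labelled volume did not overlap between the groups and age overlapped only in part, so the agent cannot be fully told apart from these. None of the 9 genes passed the test across all genes: limma called 0 of 9 at an adjusted p under 0.05, where it called 7.94% of the 12394 genes. At an unadjusted p under 0.05 there were 4 of 9, Tlr2, Ly96, Tlr7 and Myd88, beside 22.6% of all genes, and an exact permutation test over all 12870 labellings of the mice gave the same number, 4. The first 3 of these had the higher mean in BLZ945 and Myd88 the lower. In 0 of the 9 were the groups apart, where 0.315% of all genes were wholly higher in BLZ945 and 1.04% wholly lower. Of the 9, 6 had the higher mean in BLZ945, beside 61.1% of all genes. The median difference of the 9 was 0.14 log2 units and that of all genes 0.07. Levels below are log2 values, differences are BLZ945 minus Vehicle, and means carry their SD over 8 mice.

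**Figure D1:**
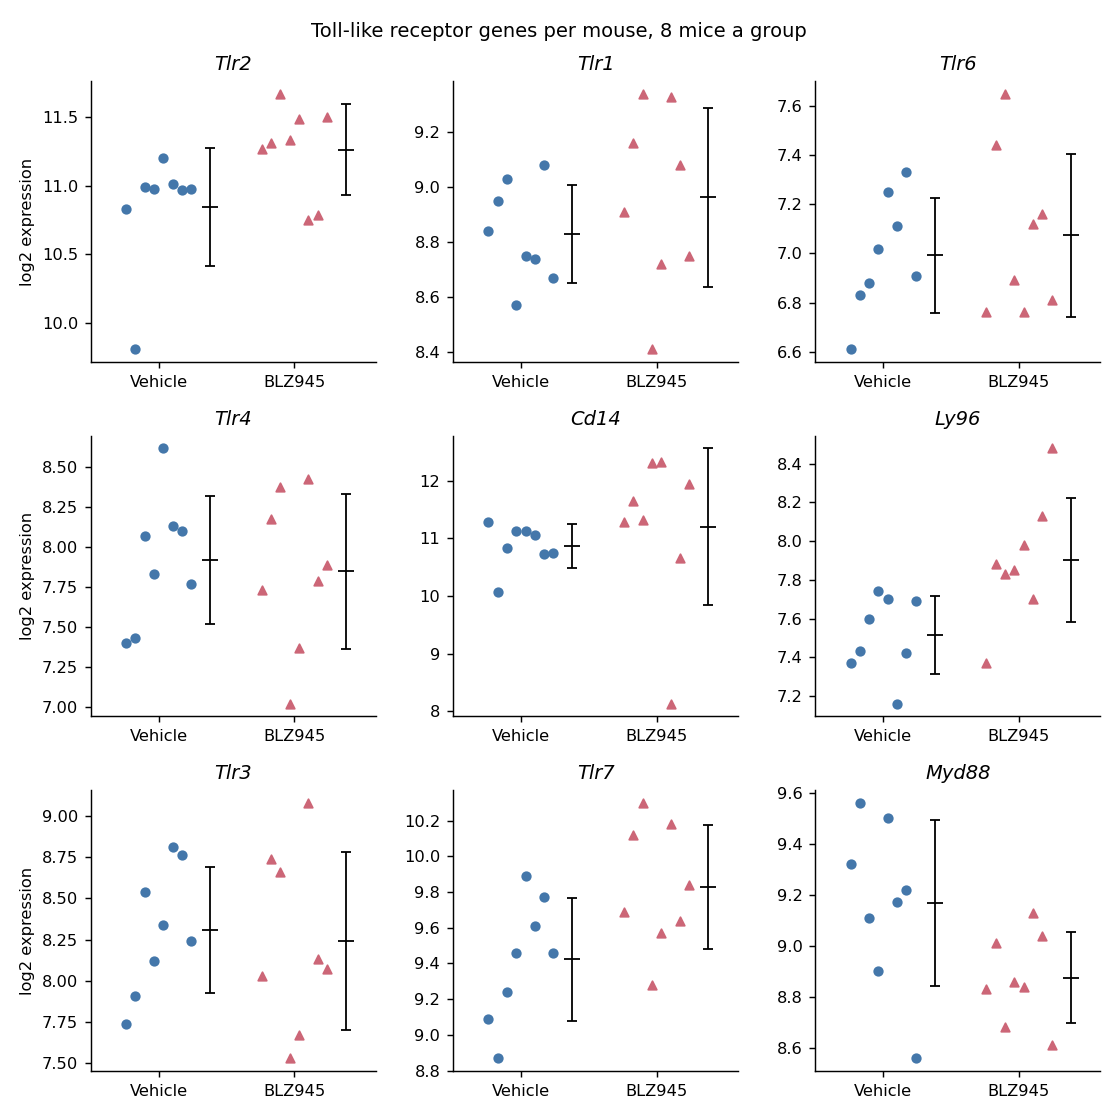
Log2 expression (y axis) of the 9 genes in each mouse, 8 Vehicle (circles) and 8 BLZ945 (triangles), each panel on its own scale, with the group mean and SD beside the points. In Ly96 6 of 8 BLZ945 mice lie above every Vehicle mouse, and in Cd14 the BLZ945 mice span 8.13 to 12.33.

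Tlr2, the shared chain of the receptors for bacterial lipoproteins, ran from 9.81 over a median of 10.98 to 11.20 in Vehicle and from 10.75 over 11.32 to 11.67 in BLZ945. A single Vehicle mouse, replicate 2, lay far below the other 7, which sat between 10.83 and 11.20, and 6 of 8 BLZ945 mice were above every Vehicle mouse. The mean went from 10.85 ± 0.43 to 11.26 ± 0.33, a difference of 0.42 (SE 0.18, 95% interval 0.04 to 0.80, adjusted p = 0.175). Without Vehicle 2 the difference was 0.27, the smallest with any 1 mouse left out, (adjusted p = 0.226). In the mice of 11.29 weeks it was 0.21 (adjusted p = 0.608). Tlr1, which with Tlr2 reads triacylated lipoproteins, ran from 8.57 over 8.79 to 9.08 in Vehicle and from 8.41 over 9.0 to 9.34 in BLZ945, a difference of 0.14 (interval -0.15 to 0.42, adjusted p = 0.557), and 0.40 in the mice of 11.29 weeks (adjusted p = 0.283). The BLZ945 range enclosed the Vehicle range on both sides. Tlr6, which with Tlr2 reads diacylated lipoproteins, ran from 6.61 over 6.96 to 7.33 and from 6.76 over 7.00 to 7.65, a difference of 0.08 (interval -0.22 to 0.38, adjusted p = 0.753). Each of Tlr1, Tlr2 and Tlr6 was measured by 1 probe set.

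Tlr4, the receptor of bacterial lipopolysaccharide, had nearly the same mean in both groups. It ran from 7.40 over 7.95 to 8.62 in Vehicle and from 7.02 over 7.84 to 8.43 in BLZ945, with means of 7.92 ± 0.40 and 7.85 ± 0.49. The difference was -0.07 (SE 0.21, interval -0.51 to 0.36, adjusted p = 0.846), and the second probe set gave -0.11 and followed the first over the 16 mice (r = 0.86). Ly96, the small protein that sits on Tlr4 and holds lipopolysaccharide, was the gene of the 9 with the smallest p. It ran from 7.16 over 7.52 to 7.74 in Vehicle and from 7.37 over 7.86 to 8.48 in BLZ945, and 6 of 8 BLZ945 mice were above every Vehicle mouse. Its mean went from 7.52 ± 0.20 to 7.90 ± 0.32, a difference of 0.39 (SE 0.14, interval 0.10 to 0.67, adjusted p = 0.0939, exact permutation p = 0.00948 unadjusted). It passed without BLZ945 1 (0.46, adjusted p = 0.0338), the lowest BLZ945 mouse, so that leaving it out is no test. In the mice of 11.29 weeks the difference was 0.19 (adjusted p = 0.622).

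Cd14, the receptor that hands lipopolysaccharide to the complex of Tlr4 and Ly96, varied most of the 9 in BLZ945. It ran from 10.06 over 10.95 to 11.28 in Vehicle and from 8.13 over 11.48 to 12.33 in BLZ945. In BLZ945, 6 mice were above every Vehicle mouse and 1, BLZ945 6, was far below all of them. The SD was 0.38 in Vehicle and 1.36 in BLZ945, and the difference of means was 0.33 (SE 0.44, interval -0.59 to 1.25, adjusted p = 0.658). Without BLZ945 6 the difference was 0.77 and passed (adjusted p = 0.0442), which is no test since that mouse is the lowest of all 16, and without both BLZ945 6 and Vehicle 2, chosen after the data were seen, it was 0.66 (adjusted p = 0.0643). In the mice of 11.29 weeks, BLZ945 6 among them, it was -0.41 (adjusted p = 0.771). The same 2 mice were the highest of their groups in the mean of the T and NK cell markers, 5.91 in BLZ945 6 and 4.89 in Vehicle 2. Over the 16 mice, with group means removed, that list went with Cd14 at r = -0.75 (rho = -0.25) and with Tlr2 at r = -0.73 (rho = -0.64). These relations rest on the 2 mice: without them r was 0.02 for Cd14 and -0.27 for Tlr2. The B cell list, also highest among Vehicle mice in Vehicle 2, went with Tlr2 at r = -0.70 and with Cd14 at -0.29.

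Tlr3, the endosomal receptor of double-stranded RNA, ran from 7.74 over 8.29 to 8.81 in Vehicle and from 7.53 over 8.10 to 9.08 in BLZ945. The difference was -0.07 (SE 0.22, interval -0.52 to 0.38, adjusted p = 0.863). Its tested probe set is of the type whose probes can match several transcripts, and the other, more specific probe set gave -0.27 (adjusted p over 20393 probe sets = 0.479). Tlr7, an X-linked endosomal receptor of single-stranded RNA, ran from 8.87 over 9.46 to 9.89 in Vehicle and from 9.28 over 9.76 to 10.30 in BLZ945, and 3 of 8 BLZ945 mice were above every Vehicle mouse. Its mean went from 9.42 ± 0.34 to 9.83 ± 0.35, a difference of 0.40 (SE 0.17, interval 0.05 to 0.75, adjusted p = 0.156). The other 2 probe sets of Tlr7 passed: from 6.30 ± 0.35 to 6.98 ± 0.43 (0.69, adjusted p over all probe sets = 0.0293) and from 6.36 ± 0.25 to 7.00 ± 0.51 (0.64, adjusted p = 0.0456). Both were designed on the same expressed sequence, so they are not independent of each other, and 1 is of the type whose probes can match other transcripts. They followed the tested probe set over the 16 mice at r = 0.70 and 0.68. The call of Tlr7 thus depended on the probe set, and the mean of the 3 passed as well (0.58, adjusted p = 0.0306).

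**Figure D2:**
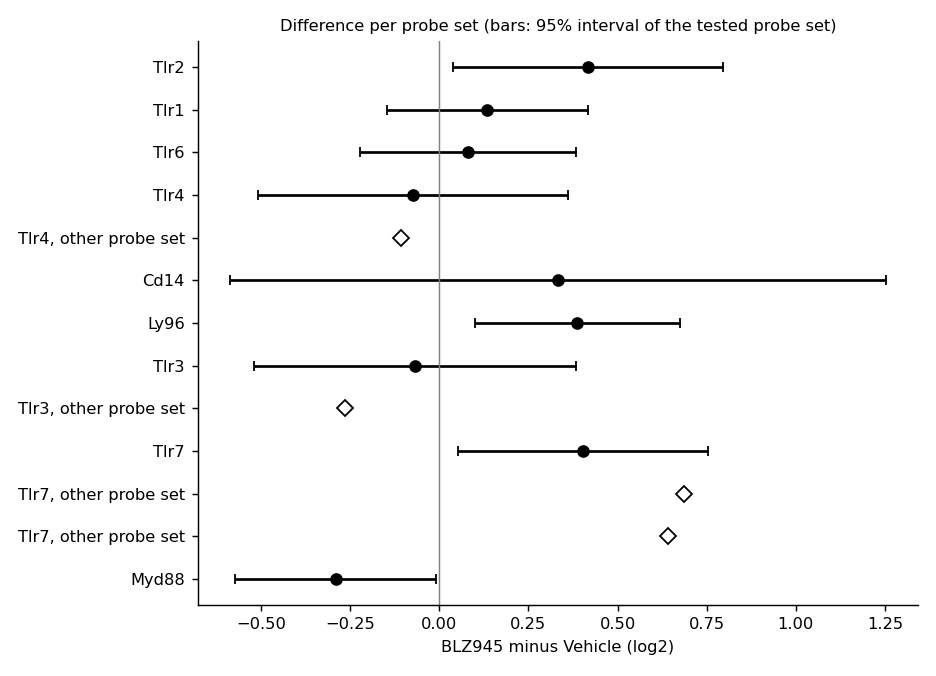
Difference in log2 expression, BLZ945 minus Vehicle (x axis), for the 9 genes; filled circles with bars are the tested probe set and its 95% interval before adjustment, and open diamonds the other probe sets of a gene. The 2 further probe sets of Tlr7 lie at 0.69 and 0.64, to the right of the tested one at 0.40.

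Myd88, the adaptor through which all of these receptors but Tlr3 signal, was the only gene of the 4 with a lower mean in BLZ945. It ran from 8.56 over 9.19 to 9.56 in Vehicle and from 8.61 over 8.85 to 9.13 in BLZ945. The lowest value of all was in a Vehicle mouse, replicate 8, and 0 of 8 BLZ945 mice lay outside the Vehicle range. The mean went from 9.17 ± 0.32 to 8.88 ± 0.18, a difference of -0.29 (SE 0.13, interval -0.57 to -0.01, adjusted p = 0.206, exact permutation p = 0.0446 unadjusted).

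Tlr4, Tlr7, Tlr3 and Tlr6 varied together from mouse to mouse, and with the spread of the whole array. With group means removed, Tlr4 went with Tlr7 at r = 0.92 (rho = 0.90) and with Tlr3 at r = 0.86 (rho = 0.88) over 16 mice. Within groups, Tlr4 and Tlr7 correlated at 0.87 in Vehicle and 0.97 in BLZ945. The SD of the log2 values of all genes on an array ran from 2.25 to 2.47 in Vehicle and from 2.17 to 2.41 in BLZ945. It went with Tlr4 at r = 0.91 (rho = 0.91), with Tlr7 at r = 0.91 (rho = 0.86), with Tlr3 at r = 0.90 (rho = 0.88) and with Tlr6 at r = 0.80 (rho = 0.74). Without Vehicle 7 and BLZ945 6, the arrays farthest from the median, these r were 0.93, 0.90, 0.88 and 0.82. Over all genes the median of this r was -0.11, and Tlr7, Tlr4, Tlr3 and Tlr6 stood at its percentiles 99.1, 98.9, 98.6 and 92.2. Tlr1 stood between, at r = 0.62 (rho = 0.61, and 0.49 without the same 2 arrays), with 0.15 in Vehicle and 0.89 in BLZ945, and within BLZ945 it went with Tlr4 at 0.94 and with Tlr3 at 0.92. Both quantities come from the same array, and the part of the array spread in these levels was not tested beyond the fit with it as a covariate.

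**Figure D3:**
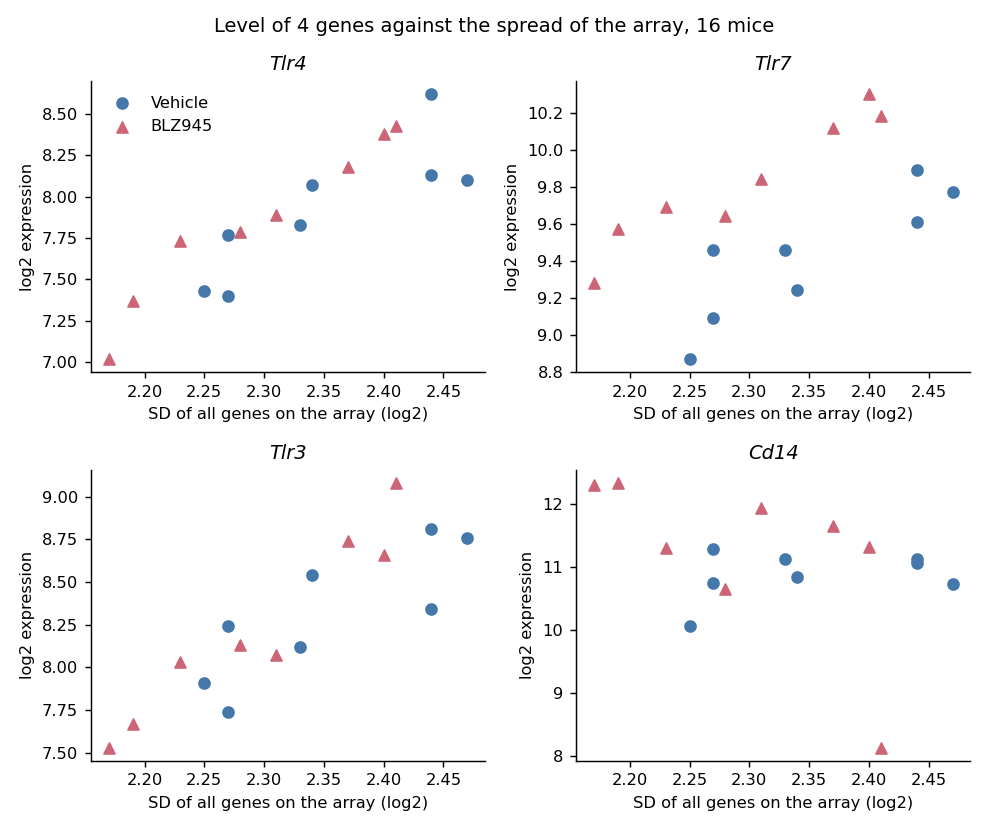
Log2 expression of Tlr4, Tlr7, Tlr3 and Cd14 (y axes) against the SD of all genes on the same array (x axis, log2 units), 8 Vehicle mice (circles) and 8 BLZ945 mice (triangles). In Tlr7 the BLZ945 points lie above the Vehicle points of like SD, while in Tlr4 and Tlr3 the groups share 1 band.

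With the array SD as a covariate the difference of Tlr7 was 0.60 (adjusted p = 0.000581), and it also passed when quantile normalization was repeated (0.45, adjusted p = 0.0326). Tlr4 and Tlr3 turned from -0.07 each to 0.17 (adjusted p = 0.334) and 0.19 (adjusted p = 0.318) with that covariate, and to 0.01 and 0.12 with age cohort as a covariate. Rescaling did not turn them: with quantile normalization repeated they were -0.03 and -0.02, and with arrays centred on their medians -0.03 each. Neither gene passed in these fits. Tlr2, Ly96 and Myd88 followed the array spread less, at r = 0.25, -0.06 and 0.18 (0.45, 0.07 and 0.06 without those 2 arrays). Tlr2 went instead with Cd14 at r = 0.62 (rho = 0.49), and without Vehicle 2 and BLZ945 6 at 0.40. The partners did not vary alike: Tlr2 correlated with Tlr1 at -0.28 and with Tlr6 at 0.22, and Tlr4 with Ly96 at 0.02. The genes most like each of the 9 over the 16 mice, with group means removed, were Wac (r = 0.96) for Tlr4, Ttc1 (0.95) for Tlr7, Atr (0.95) for Tlr3, Sec22a (0.93) for Tlr6, Gsap (0.93) for Tlr1, Tcim (0.94) for Cd14, Mrfap1 (0.89) for Tlr2, Mrpl14 (0.86) for Ly96 and Prr13 (0.85) for Myd88. Of these 9 neighbours 0 passed the limma test of BLZ945 against Vehicle, beside 7.94% of all genes, the smallest adjusted p being 0.0732 for Prr13. Neighbours were picked for the highest r among all genes over 16 mice, so part of its height comes from the picking. Whether they share more than the array spread was not tested. The next most alike were Zmym1 (0.94) for Tlr4, Zfp120 (0.95) for Tlr7, Lonp2 (0.94) for Tlr3, Bag4 (0.92) for Tlr6, Ttc39b (0.92) for Tlr1, Pmp22 (0.91) for Cd14, Sqor (0.89) for Tlr2, Mmgt2 (0.81) for Ly96 and Ppp2r5a (0.84) for Myd88.

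Within BLZ945, 4 mice were 11.29 and 4 were 13.14 weeks old. Of the 9 genes 0 passed this comparison in limma, which called 0.0403% of all genes, and 4 had an unadjusted p under 0.05, beside 18.7% of all genes. These 4, Tlr3, Tlr4, Tlr7 and Tlr1, had lower means in the older mice. Tlr3 was 8.63 ± 0.44 in the younger and 7.85 ± 0.29 in the older mice, Tlr4 8.18 ± 0.32 and 7.51 ± 0.40, and Tlr7 10.07 ± 0.27 and 9.58 ± 0.23 (SD, n = 4 each). Ly96 had the opposite direction, 7.70 ± 0.23 and 8.11 ± 0.27, as did Cd14, 10.60 ± 1.65 and 11.81 ± 0.79. The younger mean of Cd14 holds BLZ945 6 at 8.13, beside 11.29, 11.64 and 11.32 in the others. The older mice ran from 10.65 to 12.33 in Cd14. Of the 4 mice of each age, 2 of the younger and 3 of the older were female. The array SD ran from 2.23 to 2.41 in the younger and from 2.17 to 2.31 in the older mice. With it as a covariate, an alternative chosen after the data were seen, the differences of Tlr3, Tlr4 and Tlr7 shrank from -0.78, -0.67 and -0.49 to -0.23, -0.14 and -0.13, while that of Ly96 went from 0.41 to 0.75 (adjusted p = 0.278).

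**Figure D4:**
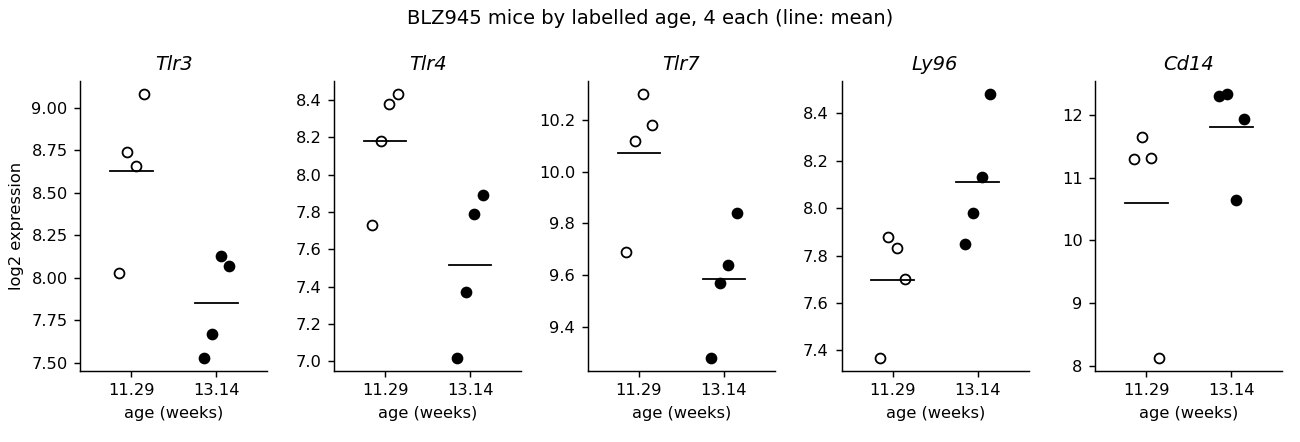
Log2 expression (y axes) of 5 genes in the 8 BLZ945 mice by labelled age, 11.29 weeks (open) and 13.14 weeks (filled), 4 mice each, with the mean as a line. The means of Tlr3, Tlr4 and Tlr7 are lower and those of Ly96 and Cd14 higher in the older mice, and none of these differences passed. In Cd14 the low point at 11.29 weeks is BLZ945 6 (8.13).

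Sex was tested over 9 female and 7 male mice with the agent as a covariate. Of the 9 genes 0 passed in limma (0.0323% of all genes did), and 2 had an unadjusted p under 0.05, beside 9.8% of all genes. These were Cd14, with a female mean of 10.98 in Vehicle and 11.84 in BLZ945 against male means of 10.76 and 10.14, and Myd88, which was 0.27 lower in females (female minus male -0.27, adjusted p = 0.508). BLZ945 6, the mouse with the low Cd14, was male. Tlr7, which is X-linked, differed between the sexes by -0.19 (SE 0.17, adjusted p = 0.656). The agent difference was not shown to differ between the sexes: the interaction called 0 of 9 genes and 0% of all genes, and at an unadjusted p under 0.05 it had 0 of 9, beside 3.34% of all genes.

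Further genes of the pathway were taken by role from a list of 77, of which 63 had a probe set of their own. The list was chosen with earlier results of these data known, so its counts are no independent test. Of the 63, 10 rose and 0 fell, beside 2.6% of all genes higher and 5.34% lower. At an unadjusted p under 0.05 there were 19, beside 22.6% of all genes. The count of 0 that fell depended on the setting: 2 fell with quantile normalization repeated, array weights or sex as a covariate, 1 with the dimmest genes left out, a trended and robust fit or the replicate block, and 3 without BLZ945 6. With arrays centred on their medians the calls over all genes were 434 higher and 564 lower in place of 322 and 662. The median difference of the 63 was 0.07, the same as that of all genes. The 10 lay downstream of the receptors: 1 of 12 kinases and ubiquitin ligases, 2 of 10 inhibitors, 4 of 8 transcription factors and 3 of 20 induced target genes. Of 3 other receptors, 8 trafficking and accessory proteins and 2 other adaptors, 0 passed, with 1, 2 and 0 at an unadjusted p under 0.05.

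Rela and Relb, subunits of NF-kappa-B, rose. Rela ran from 8.71 over 8.86 to 9.17 in Vehicle and from 9.21 over 9.37 to 9.69 in BLZ945 (difference 0.48, adjusted p = 0.00464). It was the only 1 of the 10 whose groups did not overlap, where 0.315% of all genes were wholly higher in BLZ945. The 10 were called from the same values, so this is no further test. Relb ran from 5.75 over 6.33 to 6.88 and from 6.81 over 7.09 to 7.41 (0.80, adjusted p = 0.00301), with 7 of 8 BLZ945 mice above every Vehicle mouse. Further factors, of the interferon regulatory family, rose, Irf8, which microglia need to develop (0.49, adjusted p = 0.0144), and Irf3, which acts below Tlr3 and Tlr4 (0.43, adjusted p = 0.0323). The second probe set of Irf8 gave 0.70 (adjusted p over all probe sets = 0.0048), while the other 3 of Irf3 gave 0.23 to 0.40 and did not pass, and Irf3 no longer passed when 1 of 7 mice was left out, namely Vehicle 1, Vehicle 4, Vehicle 6, Vehicle 8, BLZ945 2, BLZ945 5 or BLZ945 7 (adjusted p between 0.0513 and 0.072). Nfkb2 differed by 0.53 (adjusted p = 0.271), Rel by -0.22 (0.565) and Irf7 by -0.45 (0.531).

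Ikbke, a kinase that activates Irf3, rose from 6.73 ± 0.61 to 7.98 ± 0.56 (1.25, n = 8 each, adjusted p = 0.00619). Among the inhibitors, Dusp1, a phosphatase of the stress kinases, rose from 11.42 ± 0.83 to 12.64 ± 0.30 (1.22, adjusted p = 0.0106), and Tnfaip3, the ubiquitin-editing enzyme A20 that ends NF-kappa-B signalling, from 5.05 ± 0.41 to 5.76 ± 0.34 (0.71, adjusted p = 0.0183). Nfkbia, which holds NF-kappa-B in the cytoplasm, differed by 0.47 (adjusted p = 0.186). Of the target genes, the cytokine gene Il1b rose by 1.04, the chemokine gene Ccl4 by 0.84 and the chemokine-binding receptor gene Ccrl2 by 0.90 (adjusted p 0.0123, 0.0166 and 0.0252). The call of Ccrl2 ended without Vehicle 4 (0.0515) or Vehicle 8 (0.0529). Others went the other way without passing, Ccl2 by -0.94 (adjusted p = 0.0954) and Cxcl10 by -0.97 (0.161), and Tnf and Il6 differed by -0.11 (0.832) and 0.22 (0.763).

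**Figure D5:**
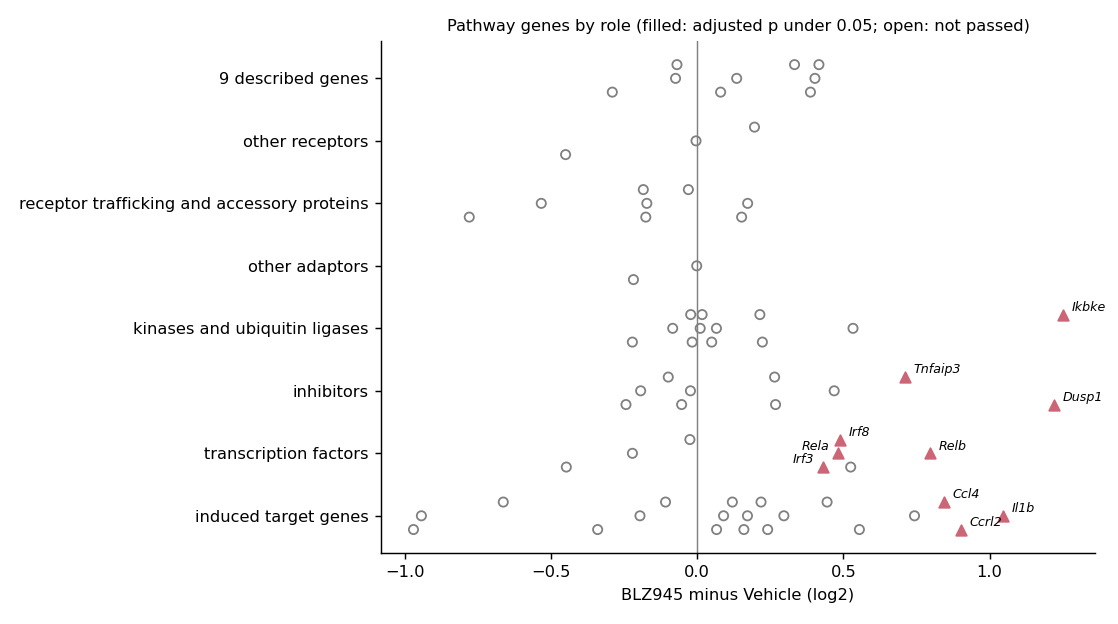
Difference in log2 expression, BLZ945 minus Vehicle (x axis), of the 9 described genes and of 63 further pathway genes by role (rows); filled triangles passed at an adjusted p under 0.05 and open circles did not. The 10 that passed all lie to the right of 0, in the 4 lower rows.

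In the upper part of the pathway the values measured were not past the threshold. The adaptor genes Ticam1, Ticam2 and Sarm1 and the receptor genes Tlr11, Tlr12 and Tlr13 had no probe set of their own. The chaperone gene Hsp90b1, needed to fold most Toll-like receptors, differed by -0.53 (adjusted p = 0.0609), in a second probe set by -0.52 (adjusted p over all probe sets = 0.303). Tril, an accessory protein of Tlr4, differed by -0.78 (adjusted p = 0.0659), in a second probe set by -0.11 (0.709). Both genes lay close to the threshold in their tested probe sets. Hsp90b1 passed in 6 alternatives with all mice (the dimmest genes left out, quantile normalization repeated, a trended and robust fit, array weights, sex as a covariate and the replicate block, adjusted p 0.0232 to 0.0495), and also without Vehicle 2 (0.0427) or BLZ945 6 (0.0266). Hsp90b1 did not pass with the mean of its probe sets (0.153), arrays centred on their medians (0.102) or age cohort as a covariate (-0.21, 0.668), among other settings. Tril passed with quantile normalization repeated (adjusted p = 0.0339), with sex as a covariate (0.0389) and without Vehicle 7 (0.0433). With the glioma marker mean as a covariate the difference of Tril was 0.04 (0.968). Tlr8 and Tlr9, the other endosomal receptors measured, differed by -0.45 (adjusted p = 0.163) and 0.20 (0.398), and the adaptor genes Tirap and Pik3ap1 by -0.22 (0.531) and 0.00 (0.996). Tril, Tlr8 and Tlr9 were dim, with Vehicle means of 4.90, 4.89 and 4.75. Their means over all mice stood at percentiles 27, 29.09 and 31.55 of all genes, and whether they were above background was not tested. The calls of the 10 genes were weaker in subsets: with age cohort as a covariate 0 of 10 passed (differences 0.33 to 1.23, adjusted p 0.0524 to 0.448), and in the mice of 11.29 weeks 1 of 10, Relb. Both fits rest on the same mice of the 1 shared age and give the same 10 differences, all above 0.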

How the data were processed

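The 9 genes and the gene lists were chosen with earlier results of these data known. RNA (75 ng per mouse) was labelled with an Affymetrix 3′ kit, per the labels' protocols. The authors deposited 1 log2 value for each probe set of each array. GCOS 1.4 and RMA are named, with no role, in the submitters' processing notes; RMA normalizes across arrays and compresses differences of dim probe sets. Scanner files were not used here, so no probe set was called above background, and the number of arrays limits precision. Of 22690 probe sets, 20393 held 1 symbol in the platform annotation, 691 several (not used) and 1606 none. The brightest probe set of each gene was tested by limma 3.58.1 in R 4.3.3, with Benjamini-Hochberg adjustment over 12394 genes and a call at an adjusted p under 0.05. The calculation was tested on simulated data. The genes named were the 9, each pathway role's called genes (at most 6) or, with none, its 2 of smallest p, the called marker genes and each gene's 2 closest by correlation; others were chosen after their values were seen. No 2 arrays held identical values (highest r 0.991). Each array is 1 mouse, and litters are not given. Correlations across mice are descriptions without p.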

Additional observations from a re-analysis of the deposited data

Results flagged for a closer look

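A mouse was taken to stand apart where its distance from its nearest neighbour exceeded Dixon's critical share of the group's range. This was so in 7 of 50 groups of 8 values (the 9 genes and 16 further pathway genes, 2 groups each). About 1 in 20 groups of independent normal values would hold such a mouse. The 50 groups come from the same 16 mice and from genes that vary together, so the count of 7 is no test against chance. Vehicle 2 was low in Tlr2 (9.81, the others 10.83 to 11.20) and in Cd14 (10.06, the others 10.72 to 11.28). BLZ945 6 was low in Cd14 (8.13, the others 10.65 to 12.33). The other 4 were BLZ945 2 low in Tlr9 (4.36), Vehicle 6 high in Tril (6.29), Vehicle 8 low in Dusp1 (9.62) and BLZ945 4 low in Ccrl2 (9.32). Vehicle 2 and BLZ945 6 also had the highest T and NK cell marker means of their groups. Vehicle 2 was also the highest Vehicle mouse in the B cell (5.65) and conventional dendritic cell (6.44) lists, while BLZ945 6 was the highest of its group in neither. The part of any of these cells in the low Cd14 and Tlr2 was not tested further.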

How the results depend on the processing

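The count of genes called over the whole array, 984, moved to 215 with age cohort as covariate, 1603 with array SD, 15 with labelled volume in 14 mice, 181 with the glioma marker mean, 89 in mice of 11.29 weeks, 393 in females and 2 in males. In these settings the pathway count of 10 went to 13 with array SD, 0 with age cohort, volume and glioma marker mean, 1 in mice of 11.29 weeks, 6 in females and 0 in males. With array SD the calls over the array were 813 higher and 790 lower. With volume as covariate the difference of Ccrl2 was -0.41. Those of Tlr7, Ly96, Cd14, Tlr1, Tlr6 and Tlr4 were -0.30, -0.15, -0.12, -0.06, -0.44 and -1.02, none of them called. Volume did not overlap between the groups, so this fit cannot part it from the agent. Its SE was 0.35 for Tlr7 and 1.15 for Cd14, beside 0.17 and 0.44 in the main fit. The subsets hold fewer mice; otherwise the cause was not tested. Of the 9 receptor genes, 1 passed (Tlr7) with the mean of all probe sets, with quantile normalization repeated and with array SD, and 4 had an unadjusted exact permutation p under 0.05. Leaving out each mouse gave 710 to 1188 genes over the array, 0 to 1 of the 9 and 8 to 14 of the pathway. Replicate numbers were not taken as pairs in the main fit. Same-numbered mice correlated at r from -0.48 to 0.39, with 5 of 8 pairs above 0.1. Only 1 of 8 was best matched by its own number. The replicate block gave 873 genes, 0 of the 9 and 12 of the pathway. Without Vehicle 2 and BLZ945 6, chosen after seeing the data, there were 1357, 0 and 13. The comparisons by age and sex stayed at 0 of 9 in their alternatives.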
